A study of Mus musculus with 4 samples.

Results

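The genes that drive and guard mitosis were followed in leukaemia stem cells of mice labelled as lacking Rreb1. They are the cyclin-dependent and mitotic kinases with their cyclins, the kinesin motors, the kinetochore and the spindle checkpoint. Members were taken by symbol, as every gene whose name begins with Kif and a digit (27 genes), Cenp (21), Cdca and a digit (7) or Aurk (3), together with 20 genes named singly. This gave 78 of the 16442 genes in the deposited table. The libraries came from leukaemic bone marrow of C57BL/6 mice, 2 from Rreb1-KO mice (KO) and 2 from wild-type mice (WT), and both groups shared the leukaemia. Rreb1 encodes a zinc-finger transcription factor. How the leukaemia was started, how Rreb1 was deleted and in which cells, and the age of the mice are not given in the sources at hand. The libraries are called biological replicates without a word on separate or pooled animals, so p-values measure the spread between these libraries, which may in part be technical.

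Several labels disagree with each other, and the transcripts do not settle them. For KO replicate 2 the genotype field has Rreb2 in place of Rreb1, although its title places it with the KO libraries. The RNA extraction protocol was written for TAMs, where the titles have leukaemia stem cells. Rreb1 itself had 6.10 and 6.93 FPKM in the KO libraries against 5.24 and 6.57 FPKM in the WT libraries (log2 fold change 0.13, limma adjusted p = 0.616), so its exon total shows no loss in the libraries labelled KO. FPKM counts fragments relative to the exon length of a gene and the depth of its library. KO and WT therefore stand for what the labels say. The 8 progenitor genes used to check the cell type were all detected but stood on different sides. Kit, a growth factor receptor gene, had 7.36 and 7.15 FPKM in KO against 3.65 and 4.25 FPKM in WT, and Cd34 had 50.5 and 49.8 FPKM in KO against 68.3 and 71.5 FPKM in WT. Flt3, another receptor gene, had 19.5 and 17.7 FPKM in KO against 26.2 and 28.2 FPKM in WT, and Hoxa9 had 35.8 and 31.8 FPKM in KO against 28.9 and 30.4 FPKM in WT. Assigned reads per library ran from 16590830 to 18451251, and the members with recovered reads took 0.841% and 0.801% of them in KO, against 0.827% and 0.876% in WT.

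In background, entry into mitosis is set off when cyclin B binds Cdk1 and the kinases Aurora A and Plk1 help to activate the pair. Chromosomes then attach to spindle microtubules through the kinetochore, a layered assembly built on the centromere, while the spindle checkpoint restrains Cdc20, the activator of the anaphase-promoting complex, until attachment is complete. Many of these genes are transcribed late in the cell cycle, and their promoters are known for CCAAT boxes bound by NF-Y and for the cell cycle genes homology region (CHR), a site of the DREAM and MuvB complexes. In bulk libraries their level depends on how many cells are cycling and on how much RNA each cycling cell holds, and these cannot be told apart here.

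Because so many members share this promoter layout, the windows from 250 bases before to 50 bases after the RefSeq start site were searched (GRCm38.p6). The letters searched, on both strands, were TTTGAA or TTCGAA for the CHR and CCAAT for the CCAAT box. A window was at hand for 66 of the 78 members. Members with a part in mitosis, the 7 mitotic roles described in turn below, had 53 windows for 48 genes. Of these windows 58.5% held a CHR, 71.7% a CCAAT box and 49.1% both. Among all 32851 windows of the same length the shares were 19.2%, 37.4% and 7.52%, and among the windows of genes tested here they were 14.9%, 38.7% and 6.32%. The kinesins outside mitosis had a CHR in 14.3% and a CCAAT box in 35.7% of 14 windows. The 2 motifs shared letters in 2 of the members' windows. A match is only a run of letters.

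Shown are the promoters of the 4 members with the lowest KO levels relative to WT on recovered reads. With them are those of the proliferation marker gene Mki67, which was higher in KO, and of Ccnb2, the member with the highest level. Capitals mark the CHR and CCAAT letters, and each window reads 5′ to 3′ on the strand of its gene. Those of Aurka (chr2:172370521-172370820, minus strand), Plk1 (chr7:122159185-122159484, plus strand), Ccnb1 (chr13:100786437-100786736, minus strand), Cdc20 (chr4:118437294-118437593, minus strand), Mki67 (chr7:135716330-135716629, minus strand) and Ccnb2 (chr9:70421505-70421804, minus strand) are:
Aurka: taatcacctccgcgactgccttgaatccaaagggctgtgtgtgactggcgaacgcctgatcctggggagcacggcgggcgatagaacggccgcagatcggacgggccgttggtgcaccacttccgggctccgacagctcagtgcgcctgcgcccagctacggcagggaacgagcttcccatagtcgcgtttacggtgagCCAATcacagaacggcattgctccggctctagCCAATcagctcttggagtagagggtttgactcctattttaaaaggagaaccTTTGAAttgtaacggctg
Plk1: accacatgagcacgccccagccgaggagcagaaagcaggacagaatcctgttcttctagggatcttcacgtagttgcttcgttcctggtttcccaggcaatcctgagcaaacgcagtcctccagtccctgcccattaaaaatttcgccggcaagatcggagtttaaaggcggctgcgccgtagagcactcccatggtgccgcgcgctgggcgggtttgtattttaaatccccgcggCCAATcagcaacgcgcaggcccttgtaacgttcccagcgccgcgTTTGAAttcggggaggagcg
Ccnb1: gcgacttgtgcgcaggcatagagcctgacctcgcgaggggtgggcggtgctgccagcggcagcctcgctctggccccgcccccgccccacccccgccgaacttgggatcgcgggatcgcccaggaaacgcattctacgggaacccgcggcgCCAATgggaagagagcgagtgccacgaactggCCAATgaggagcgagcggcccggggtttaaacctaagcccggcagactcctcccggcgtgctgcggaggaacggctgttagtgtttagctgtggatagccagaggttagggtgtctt
Cdc20: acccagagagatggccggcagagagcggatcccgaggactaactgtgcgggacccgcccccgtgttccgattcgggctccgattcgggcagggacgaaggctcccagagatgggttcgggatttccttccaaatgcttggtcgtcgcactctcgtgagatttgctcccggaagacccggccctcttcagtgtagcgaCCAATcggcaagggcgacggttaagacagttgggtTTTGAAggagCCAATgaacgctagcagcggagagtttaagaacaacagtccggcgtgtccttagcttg
Mki67: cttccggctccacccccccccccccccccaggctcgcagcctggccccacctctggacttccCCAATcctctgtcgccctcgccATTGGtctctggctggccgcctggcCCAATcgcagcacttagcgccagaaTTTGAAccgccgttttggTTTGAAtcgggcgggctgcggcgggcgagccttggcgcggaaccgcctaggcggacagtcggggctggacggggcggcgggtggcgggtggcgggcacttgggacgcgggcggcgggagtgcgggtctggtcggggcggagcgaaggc
Ccnb2: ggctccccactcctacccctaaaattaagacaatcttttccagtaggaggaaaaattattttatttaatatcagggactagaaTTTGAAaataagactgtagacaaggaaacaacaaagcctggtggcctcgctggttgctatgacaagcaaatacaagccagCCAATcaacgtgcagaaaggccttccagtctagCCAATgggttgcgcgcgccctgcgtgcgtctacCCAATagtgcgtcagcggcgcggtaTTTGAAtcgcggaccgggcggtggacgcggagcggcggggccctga
Of these 6 promoters Ccnb1 is the one with no CHR letters in its window, and it has 2 CCAAT boxes. The window of Mki67 holds 2 CHR matches and 3 CCAAT boxes, that of Ccnb2 likewise 2 and 3, and that of Plk1 holds 1 of each. All 6 windows hold a CCAAT box, as do 71.7% of the windows of the 7 mitotic roles. The 6 were picked by their change or level, so they show nothing on motif and direction. Over the 48 genes of the mitotic roles, those with both motifs in a window (25 genes) had a median log2 fold change of −0.10 and those without (23 genes) one of 0.04, as a description.

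No gene of the mitotic programme passed the main test between KO and WT libraries. Of the 78 members 74 had a mean of at least 1 FPKM and were tested, and 0 rose and 0 fell (limma on log2(FPKM + 1), adjusted p below 0.05 over 11768 genes). Among all tested genes 0.603% rose and 0.408% fell. At an unadjusted p below 0.05, 6 members were higher and 8 lower (8.11% and 10.8% of them), against 11.4% and 9.35% of all tested genes. Both KO libraries stood above both WT libraries for 21 members (28.4%) and below them for 19 (25.7%), against 30.5% and 24.9% of all tested genes. The members' shares were thus near those of all genes. KO replicate 2 was the extreme library in 5 of the 6 higher and 8 of the 8 lower members. The groups were apart in all of them, so only a KO library could be the extreme. The matching share over all genes was not computed. The 74 tested members had a median log2 fold change of −0.01, with quartiles at −0.11 and 0.17. Over all genes tested the median was 0.03, with quartiles at −0.13 and 0.19. In groups of 2 the smallest two-sided p of an exact permutation test is 0.333, and every limma p here draws on a spread shared across genes.

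A second test, on whole reads recovered from the FPKM values, called some members. Limma-voom called 3 of 72 members higher (4.17%), against 4.41% of all genes, and 4 lower (5.56%), against 2.99%. The lower ones were Aurka, Plk1, Ccnb1 and Cdc20 and the higher ones Mki67, Cenpb and Kif21b. These 7 calls depended on the libraries: without WT replicate 1 limma-voom called 0 members, without KO replicate 2 or without WT replicate 2 it called Cenpb and Mki67, and without KO replicate 1 it called 4 higher and 8 lower. The calls over all genes moved in the same way. They were 501 higher and 340 lower with all libraries, 69 and 75 without WT replicate 1, 192 and 178 without KO replicate 2, 215 and 210 without WT replicate 2, and 1006 and 572 without KO replicate 1.

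**Figure D1:**
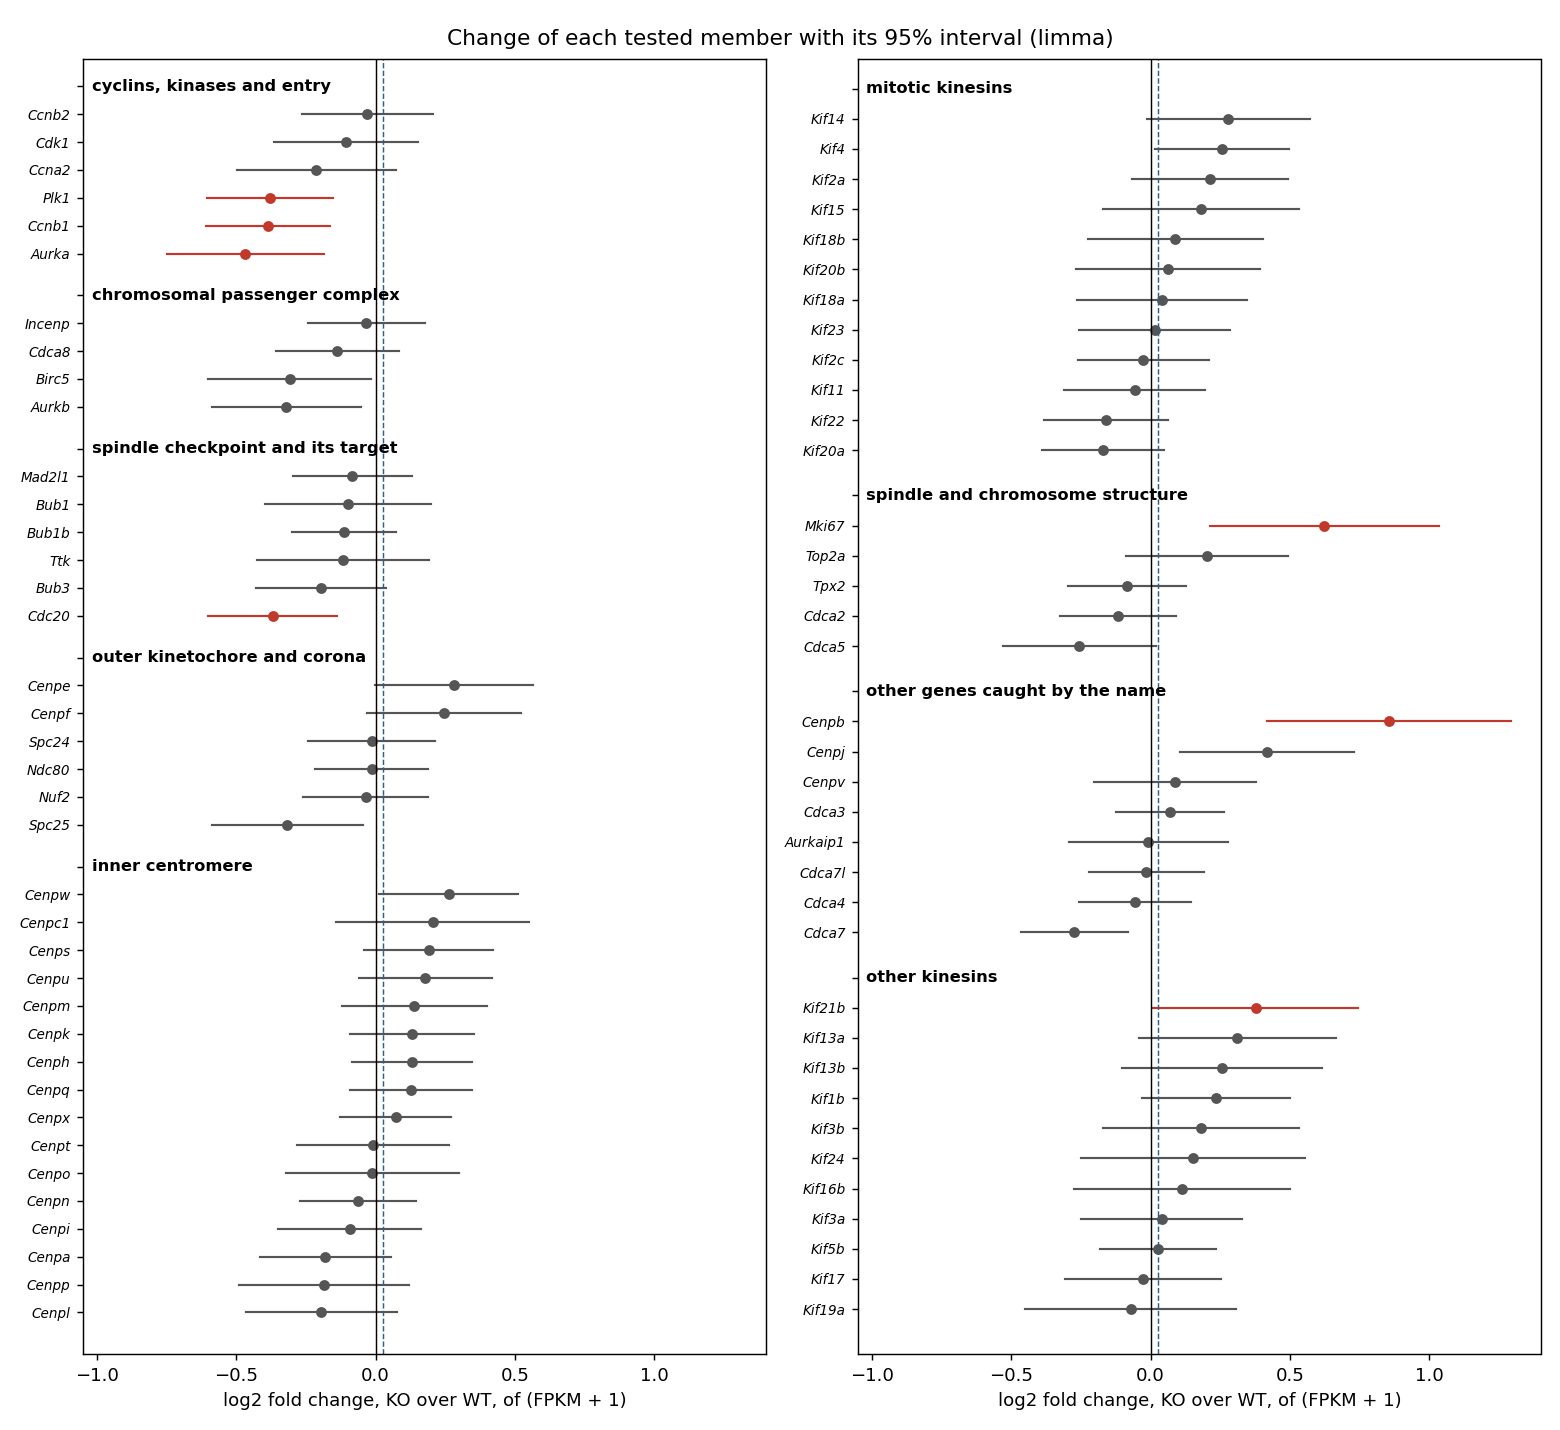
Log2 fold change of (FPKM + 1), KO over WT, of the 74 tested members by role, as points with the 95% interval from limma; red marks the 7 members called by limma-voom on recovered reads, and the dashed line is the median of all tested genes (0.03). All 6 kinases and cyclins placed under mitotic entry and all 6 of the checkpoint group lie left of 0, while most kinesins outside mitosis lie right of it. The inner kinetochore genes stand under the heading inner centromere.

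The kinases and cyclins of mitotic entry had lower means in KO than in WT. All 6 members placed in this role had a log2 fold change below 0, with a median of −0.30, and 0 passed the limma test. Of all 11768 tested genes 5412 were below 0. Such counts, here and for the roles that follow, are descriptions over genes that share the same 4 libraries. Aurora kinase A (Aurka), which matures the spindle poles, had 69.8 and 56.5 FPKM in KO against 86.1 and 88.4 FPKM in WT. The groups did not overlap, and KO replicate 2 was the lowest. The KO mean was 0.724 of the WT mean, a log2 fold change of −0.47 (SE 0.12, limma adjusted p = 0.126; limma-voom adjusted p = 0.0191).

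Polo-like kinase 1, needed for spindle assembly and mitotic exit, and cyclin B1, the partner that carries Cdk1 into the nucleus, showed differences of like size. Plk1 had 65.1 and 59.1 FPKM in KO against 77.9 and 84.2 FPKM in WT (log2 fold change −0.38, SE 0.09, limma adjusted p = 0.120; limma-voom adjusted p = 0.0326). Ccnb1 had 52.7 and 47.0 FPKM in KO against 63.6 and 67.1 FPKM in WT (log2 fold change −0.39, SE 0.09, limma adjusted p = 0.118; limma-voom adjusted p = 0.0282). For both genes each KO library lay below each WT library.

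The other cyclin B, the catalytic kinase and cyclin A2 overlapped between the groups. Ccnb2 had 305 and 283 FPKM in KO against 298 and 302 FPKM in WT, the highest level of any member. Its log2 fold change was −0.03 with 95% limits of −0.26 and 0.20 (limma adjusted p = 0.880). Cdk1 had 49.8 and 42.0 FPKM in KO against 47.7 and 50.9 FPKM in WT (log2 fold change −0.11, 95% limits −0.36 to 0.15). Cyclin A2 (Ccna2), which acts from S phase into early mitosis, had 28.2 and 24.4 FPKM in KO against 28.1 and 33.3 FPKM in WT (log2 fold change −0.21, limma adjusted p = 0.344).

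The 2 B-type cyclins thus stood in a different proportion. The ratio of Ccnb1 to Ccnb2 FPKM was 0.173 and 0.166 in KO against 0.213 and 0.222 in WT, with no overlap between groups. This ratio and the others given further on were chosen after the values were seen and carry no test. An unequal ratio does not say which of the genes differed.

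**Figure D2:**
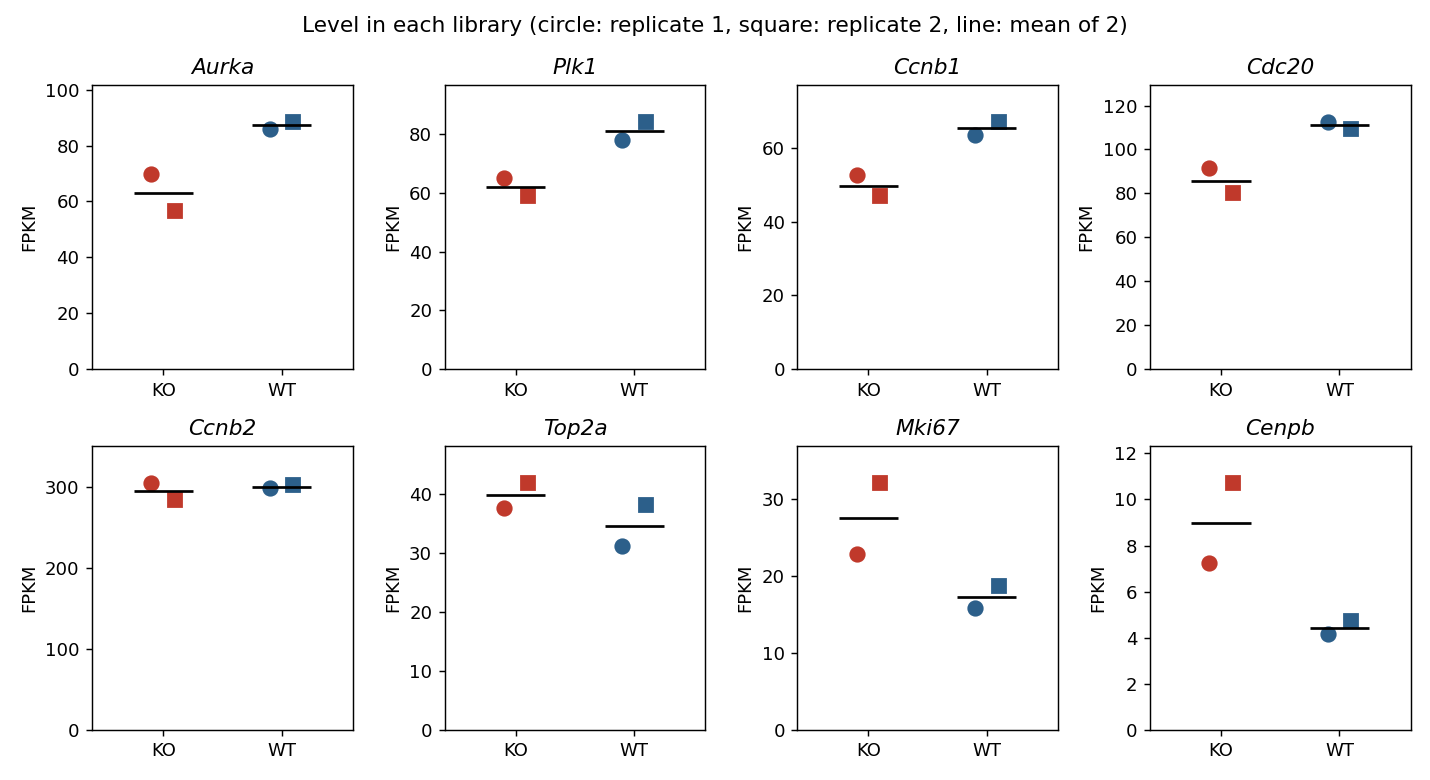
FPKM (linear axes from 0) of 8 members in each KO and WT library, as a circle for replicate 1 and a square for replicate 2 with a line at the mean of 2. Aurka, Plk1, Ccnb1 and Cdc20 lie lower in both KO libraries, Mki67 and Cenpb lie higher, and Ccnb2 and Top2a overlap between KO and WT.

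Checkpoint genes also had fold changes below 0, and Cdc20 stood out among them. All 6 members of the group were below 0 with a median of −0.11, and 0 passed the limma test. Cdc20, the target of the checkpoint, had 91.3 and 80.3 FPKM in KO against 113 and 110 FPKM in WT, and the groups did not overlap. Its log2 fold change was −0.37 (SE 0.10, limma adjusted p = 0.134; limma-voom adjusted p = 0.0367). The checkpoint proteins that hold Cdc20 in check differed less. Mad2l1 had 16.4 and 15.0 FPKM in KO against 16.6 and 16.7 FPKM in WT (log2 fold change −0.08, limma adjusted p = 0.614). Bub3, the WD-repeat partner of both Bub kinases, had 69.2 and 60.2 FPKM in KO against 74.6 and 73.5 FPKM in WT (log2 fold change −0.20, limma adjusted p = 0.299; −0.10 without KO replicate 2), with the groups apart.

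Bub1b encodes BubR1, which joins Mad2 on Cdc20. It had 32.6 and 33.5 FPKM in KO against 36.1 and 35.6 FPKM in WT, a narrow separation (log2 fold change −0.11, 95% limits −0.30 to 0.07). Bub1, the kinase that recruits the others to kinetochores, had 14.3 and 13.3 FPKM in KO against 13.3 and 16.5 FPKM in WT and overlapped. There were 5.58 and 5.35 Cdc20 FPKM for each Mad2l1 FPKM in KO, against 6.78 and 6.54 in WT.

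The chromosomal passenger complex corrects faulty attachments and comprises Aurora B, its activator INCENP, survivin (Birc5) and borealin (Cdca8). All 4 genes had fold changes below 0 (median −0.22), and 0 passed the limma or the limma-voom test. Aurkb had 63.8 and 52.5 FPKM in KO against 72.5 and 72.4 FPKM in WT (log2 fold change −0.32, SE 0.11, limma adjusted p = 0.194). Birc5 had 59.6 and 48.0 FPKM in KO against 64.0 and 69.2 FPKM in WT (log2 fold change −0.31, SE 0.12, limma adjusted p = 0.224). In both genes KO replicate 2 was the lowest library and the groups were apart. Without KO replicate 2 the log2 fold changes were −0.18 for Aurkb, −0.16 for Birc5 and −0.05 for Cdca8. Cdca8 had 62.3 and 55.4 FPKM in KO against 64.0 and 65.6 FPKM in WT (log2 fold change −0.14, limma adjusted p = 0.420), again without overlap.

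The levels of the 4 subunit genes were close to one another, with means over all libraries from 48.0 FPKM (Incenp) to 65.3 FPKM (Aurkb). Incenp, named for its level, overlapped between the groups at 48.9 and 45.9 FPKM in KO against 46.6 and 50.5 FPKM in WT. The ratio of Aurkb to Incenp was 1.30 and 1.14 in KO against 1.56 and 1.43 in WT. Levels between genes are compared per kilobase of all annotated exons, so a gene with long alternative exons reads low.

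At the outer kinetochore the 4-protein Ndc80 complex, which grips the microtubule end, had uneven FPKM levels. The exonic lengths that FPKM divides by were 6493 bases for Ndc80 and 6341 for Nuf2, against 2573 for Spc24 and 3188 for Spc25. In KO replicate 1 the reads were 1792 and 1480 against 2597 and 2720, less uneven than the FPKM. Ndc80 had 15.0 and 14.3 FPKM in KO against 14.7 and 14.9 FPKM in WT, and Nuf2, its coiled-coil partner, averaged 13.1 FPKM over all libraries. Spc24, which ties the complex to the inner kinetochore, had 54.8 and 61.1 FPKM in KO against 56.3 and 60.7 FPKM in WT. Both Ndc80 and Spc24 overlapped between groups, with log2 fold changes of −0.01 each (0.03 for Spc24 with a length trend removed) and 95% limits of −0.22 to 0.19 for Ndc80 and −0.24 to 0.21 for Spc24. The summed FPKM of Spc24 and Spc25 was 3.66 and 3.62 times that of Ndc80 and Nuf2 in KO, against 3.93 and 3.99 times in WT.

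Spc25 was the member of this complex that stood apart between groups. It had 46.3 and 38.2 FPKM in KO against 51.0 and 54.2 FPKM in WT (log2 fold change −0.32, SE 0.11, limma adjusted p = 0.200). The corona genes lay on the other side. The kinesin Cenpe, which moves chromosomes to the metaphase plate, had 15.9 and 16.2 FPKM in KO against 11.7 and 14.5 FPKM in WT (log2 fold change 0.28, SE 0.12, limma adjusted p = 0.244). The large coiled-coil protein gene Cenpf had 8.57 and 8.61 FPKM in KO against 6.46 and 7.77 FPKM in WT (log2 fold change 0.25, SE 0.11, limma adjusted p = 0.274). For both of these genes WT replicate 1 was the lowest library, and without it the log2 fold changes were 0.14 for Cenpe and 0.13 for Cenpf.

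The inner kinetochore, the constitutive network built on the centromere, had 16 members. Of these 9 had a fold change above 0 and 7 below (median 0.10). By limma 0 passed, and by limma-voom 0. Cenpa, the histone H3 variant that defines the centromere, had 46.7 and 40.8 FPKM in KO against 48.1 and 51.2 FPKM in WT (log2 fold change −0.18, limma adjusted p = 0.333). Cenpw, a histone-fold partner of Cenpt, had 14.2 and 16.7 FPKM in KO against 12.8 and 12.5 FPKM in WT (log2 fold change 0.26, limma adjusted p = 0.227). Neither gene overlapped between groups, one lower and the other higher in KO.

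The histone-fold pair Cenps and Cenpx also has a role in DNA repair with the Fanconi anaemia pathway, and Cenpx had the highest level of the network. Cenpx had 144 and 143 FPKM in KO against 137 and 136 FPKM in WT (log2 fold change 0.07, 95% limits −0.13 to 0.27), and Cenps had 48.2 and 46.3 FPKM in KO against 44.2 and 38.6 FPKM in WT (log2 fold change 0.19, limma adjusted p = 0.306). The remaining members ran from Cenpo at a mean of 3.19 FPKM to Cenpm at 47.2 FPKM. Cenpo shares 22.5% and Cenpu 26.7% of its exonic bases with genes on the opposite strand, whose reads cannot be told apart without strand information. Among all 78 members 9 share over 10% of their exonic bases in this way.

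**Figure D3:**
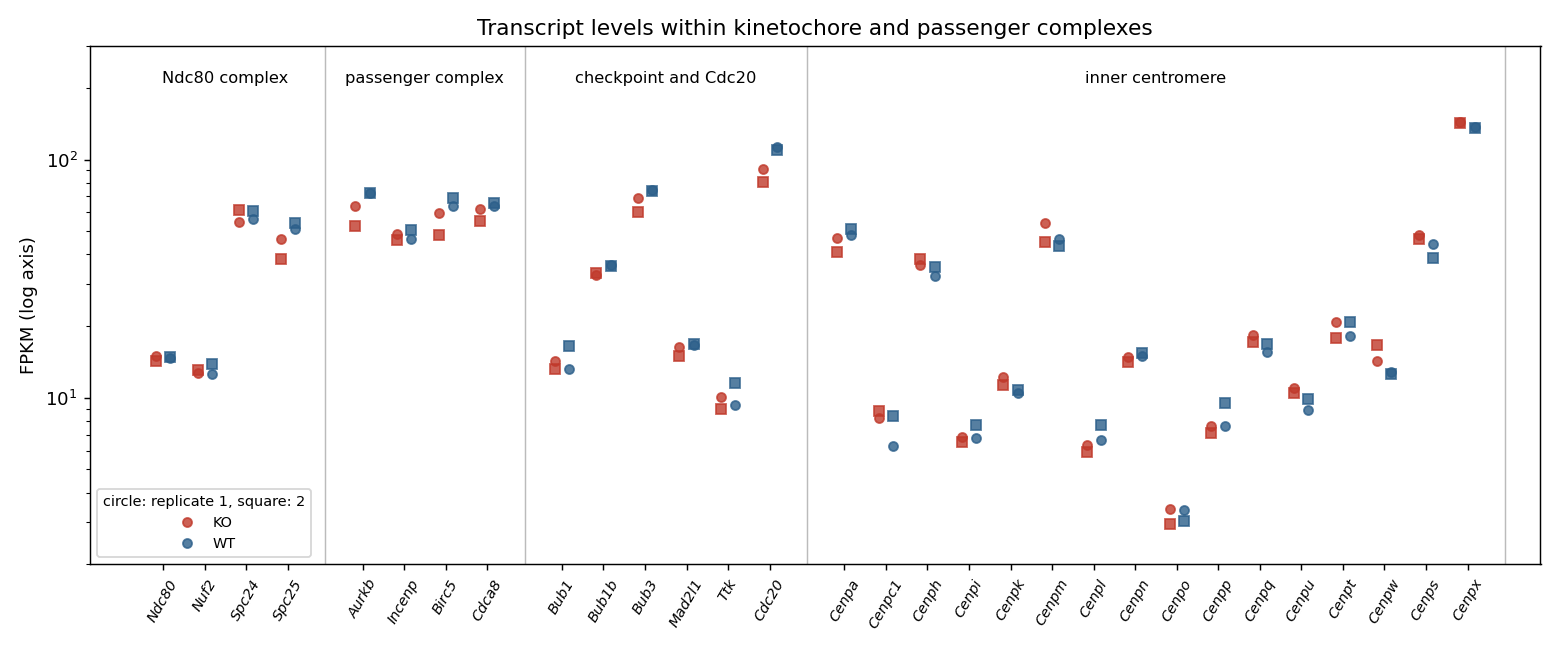
FPKM (log axis) of kinetochore, checkpoint and passenger complex genes in each KO (red, left) and WT (blue, right) library, with circles for replicate 1 and squares for replicate 2. Spc24 and Spc25 lie well above their partners Ndc80 and Nuf2 in every library on this scale, which divides by exonic length and so raises the shorter genes. The 4 passenger complex genes lie close together. The section labelled inner centromere holds the inner kinetochore genes.

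Kinesins of the spindle are motors that slide, bundle or depolymerise microtubules. Of 12 members 8 had a fold change above 0 and 4 below (median 0.05), with 7 above 0 when library medians were aligned and 6 when a length trend was removed, and 0 passed the limma or limma-voom test. Kif11 (Eg5), which separates the spindle poles, had 14.4 and 15.5 FPKM in KO against 14.4 and 16.8 FPKM in WT, and overlapped (log2 fold change −0.06, 95% limits −0.31 to 0.20). Kif23, the motor of centralspindlin in cytokinesis, had 9.52 and 9.02 FPKM in KO against 8.39 and 10.001 FPKM in WT, and overlapped too.

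The chromokinesin Kif4 and the cytokinesis kinesin Kif14 were higher in both KO libraries. Kif4 had 8.61 and 7.90 FPKM in KO against 6.61 and 6.88 FPKM in WT (log2 fold change 0.26, SE 0.10, limma adjusted p = 0.219), and 15.1% of its exonic bases are shared with an opposite gene. Kif14 had 3.31 and 3.38 FPKM in KO against 2.50 and 2.66 FPKM in WT (log2 fold change 0.28, SE 0.12, limma adjusted p = 0.254). Kif20a, which brings the passenger complex to the central spindle, and Kif22, a chromokinesin, leaned the other way. Kif20a had 21.2 and 19.7 FPKM in KO against 22.2 and 24.2 FPKM in WT (log2 fold change −0.17, limma adjusted p = 0.324), with 29.3% of its exonic bases shared with Cdc23. Kif22 had the highest level of the mitotic kinesins, 42.3 and 37.3 FPKM in KO against 44.9 and 44.0 FPKM in WT (log2 fold change −0.16, limma adjusted p = 0.363).

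Among genes of chromosome and spindle structure Mki67 had the largest difference. The Ki-67 protein coats mitotic chromosomes and is the common marker of cycling cells. Mki67 had 22.9 and 32.1 FPKM in KO against 15.9 and 18.7 FPKM in WT, from 4238 and 5497 reads against 2944 and 3123. Each KO library was above each WT library, and KO replicate 2 was the highest by a wide margin. The log2 fold change was 0.62 (SE 0.17, limma adjusted p = 0.143; limma-voom adjusted p = 0.0113), with 0.39 without KO replicate 2 and 0.86 without KO replicate 1.

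The other genes of this group differed less. Top2a, the topoisomerase that untangles sister chromatids, had 37.6 and 41.8 FPKM in KO against 31.0 and 38.0 FPKM in WT and overlapped (log2 fold change 0.20, limma adjusted p = 0.374). Tpx2, the activator of Aurora A on microtubules, had 34.0 and 32.8 FPKM in KO against 33.8 and 37.3 FPKM in WT (log2 fold change −0.09, 95% limits −0.30 to 0.13). Cdca5, or sororin, which protects sister cohesion, had 45.2 and 37.4 FPKM in KO against 51.3 and 47.3 FPKM in WT (log2 fold change −0.26, limma adjusted p = 0.265). The ratio of Mki67 to Top2a was 0.608 and 0.767 in KO against 0.511 and 0.492 in WT.

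The naming rule also caught 8 genes that were placed in none of the 7 mitotic roles and do not enter their counts. Cenpb, the one with the largest difference, encodes a protein that binds a repeat in centromeric satellite DNA, and it had 7.24 and 10.7 FPKM in KO against 4.14 and 4.74 FPKM in WT, from 652 and 893 reads against 373 and 384. KO replicate 2 was again the highest, and the groups were apart. The log2 fold change of 0.86 was the largest of any member (SE 0.18, 95% limits 0.42 to 1.30, limma adjusted p = 0.0992; limma-voom adjusted p = 0.00518). Cenpj, a centriole assembly gene, had 5.98 and 6.43 FPKM in KO against 3.93 and 4.91 FPKM in WT (log2 fold change 0.42, SE 0.13, limma adjusted p = 0.168). Cdca7, which works in chromatin remodelling with Hells, had 45.1 and 44.8 FPKM in KO against 53.3 and 55.8 FPKM in WT (log2 fold change −0.27, SE 0.08, limma adjusted p = 0.157). Aurkaip1, a mitochondrial ribosome gene despite its name, had 128 and 111 FPKM in KO against 129 and 111 FPKM in WT, and the groups overlapped. Cdca3 had 53.1 and 50.2 FPKM in KO against 49.5 and 48.9 FPKM in WT, without overlap (log2 fold change 0.07, limma adjusted p = 0.648). Of these 8 genes 4 had a fold change above 0 and 4 below.

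Kinesins that carry cargo or serve cilia outside mitosis made up the remaining 15 members. Of 11 tested, 9 had a fold change above 0 and 2 below (median 0.15), with 8 above 0 when library medians were aligned or a length trend was removed. Kif5b, the conventional kinesin heavy chain, was the one at a high level, 41.3 and 43.1 FPKM in KO against 39.6 and 43.3 FPKM in WT (log2 fold change 0.03, 95% limits −0.18 to 0.23). Kif21b had 2.34 and 3.001 FPKM in KO against 1.73 and 1.89 FPKM in WT (log2 fold change 0.38, SE 0.15, limma adjusted p = 0.234; limma-voom adjusted p = 0.0455). Kif1b had 4.84 and 4.92 FPKM in KO against 3.82 and 4.19 FPKM in WT (log2 fold change 0.23, limma adjusted p = 0.279), and Kif13a had 2.77 and 3.56 FPKM in KO against 2.41 and 2.27 FPKM in WT (log2 fold change 0.31, limma adjusted p = 0.280). These 3 genes had both KO libraries above both WT libraries. Under the filter, Kif1a had 188 and 178 reads in KO against 109 and 116 in WT, Kif3c 109 and 100 against 145 and 111, Kif9 38 and 32 against 38 and 42, and Kif1c 16 and 20 against 16 and 21.

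The differences of the members went with the length of their exons. Across the 74 tested members Spearman's rho between log2 fold change and exonic length was 0.40, against 0.08 over 11520 tested genes with a known length. Both are descriptions over genes that share the same 4 libraries. The 23 members with over 6000 exonic bases had a median log2 fold change of 0.15, and the 51 shorter ones −0.05. Length also went with differences inside each group, with a rho over the members of 0.41 for KO replicate 2 less replicate 1 and 0.37 for WT replicate 2 less replicate 1. Its part in the differences between groups was not tested. With a smooth length trend of all genes removed from each library, the rho between groups over the members was 0.20 and the medians were 0.05 for longer and −0.03 for shorter members. Cenpf then had a log2 fold change of 0.08 in place of 0.25 and Kif1b 0.05 in place of 0.23. Under the same removal Mki67 had 0.52, Cenpb 0.85, Aurka −0.43, Plk1 −0.35, Ccnb1 −0.38 and Cdc20 −0.35.

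**Figure D4:**
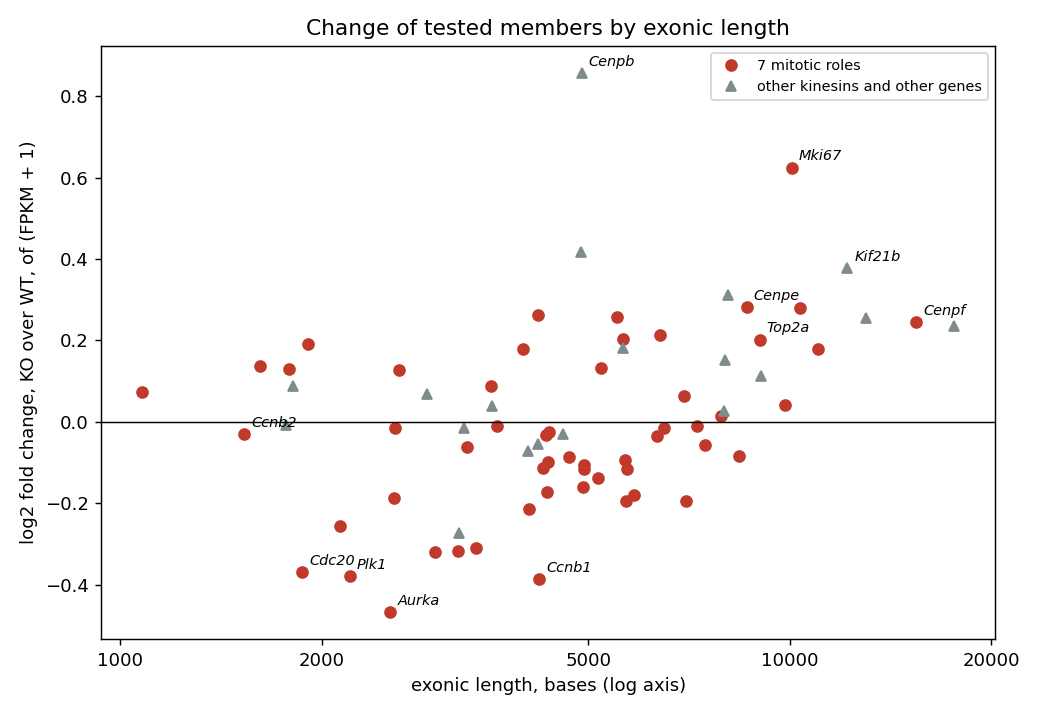
Log2 fold change of (FPKM + 1), KO over WT, against exonic length in bases (log axis) for the 74 tested members, with circles for the 7 mitotic roles and triangles for other kinesins and other genes. Members with over 6000 bases have a median of 0.15 and shorter members one of −0.05; Cenpb stands high at a middle length.

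Other genes of mitosis behaved much like the members. Of 74 further tested mitosis genes (kinetochore, condensin, cytokinesis and regulators) 0 rose and 0 fell by limma, with a median log2 fold change of −0.01. At an unadjusted p below 0.05 by limma, 4 were higher and 7 lower, against 11.4% and 9.35% of all tested genes. Limma-voom called 2 higher and 3 lower, against 4.41% and 2.99% of all genes. The condensin II subunit gene Ncapd3 had 17.1 and 19.5 FPKM in KO against 12.5 and 12.8 FPKM in WT (log2 fold change 0.50, limma adjusted p = 0.0859; limma-voom adjusted p = 0.00734). The importin gene Kpna2 had 148 and 126 FPKM in KO against 184 and 198 FPKM in WT (log2 fold change −0.48, limma adjusted p = 0.112; limma-voom adjusted p = 0.0122). Trip13, the ATPase that remodels Mad2, had 16.7 and 15.3 FPKM in KO against 20.7 and 20.8 FPKM in WT (log2 fold change −0.36, limma adjusted p = 0.118; limma-voom adjusted p = 0.0465).

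In the anaphase-promoting complex, the ligase that Cdc20 activates, 0 of 14 subunit genes were called by either test, and at an unadjusted p below 0.05 by limma 0 were higher and 3 lower, against 11.4% and 9.35% of all tested genes. The 3 are the subunit genes with the smallest p, and they are given as values. The small subunit gene Cdc26 had 5.51 and 5.09 FPKM in KO against 6.76 and 7.38 FPKM in WT (log2 fold change −0.36, limma adjusted p = 0.161), and Anapc16 had 11.05 and 11.05 FPKM in KO against 13.9 and 13.7 FPKM in WT (log2 fold change −0.30, limma adjusted p = 0.153). Anapc10 had 6.36 and 5.95 FPKM in KO against 8.04 and 7.79 FPKM in WT (log2 fold change −0.32, limma adjusted p = 0.168). Genes of DNA replication, used in S phase, had a median log2 fold change of 0.06 over 37 tested, beside −0.03 for the 55 members of the mitotic roles, and the difference between these lists was not tested. By limma 0 of the 37 were called, and at an unadjusted p below 0.05, 5 were higher and 2 lower, beside the same all-gene shares. Limma-voom called 2 higher and 0 lower, against 4.41% and 2.99% of all genes. The helicase gene Mcm4 had 49.6 and 49.4 FPKM in KO against 41.0 and 41.3 FPKM in WT (limma adjusted p = 0.158), the ligase gene Lig1 51.6 and 56.2 FPKM against 42.6 and 42.1 FPKM (limma adjusted p = 0.125), and the polymerase gene Pole 5.12 and 5.76 FPKM against 3.76 and 4.24 FPKM (limma adjusted p = 0.182).

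Markers of other marrow cells moved between the same libraries. Among all tested genes 0.603% rose and 0.408% fell by limma. Of the 12 mature neutrophil markers 9 rose and 0 fell by limma, and their summed level was 3361 and 4054 FPKM in KO against 1436 and 1467 FPKM in WT. The other 3 had log2 fold changes below 0, the lowest at −0.11, and 1 of them had both KO libraries below both WT libraries. Of the 7 tested macrophage markers 4 fell, with a summed level of 310.3 and 292 FPKM in KO against 490 and 426 FPKM in WT. Erythroid markers summed to 422 and 515 FPKM in KO against 94.0 and 84.0 FPKM in WT (5 of 6 tested rose). The remaining 1 was lower at an unadjusted p below 0.05 (log2 fold change −0.72). B cell markers summed to 137 and 120 FPKM in KO against 225 and 216 FPKM in WT (3 of 5 fell), and basophil and mast cell markers to 299.6 and 290 FPKM in KO against 517 and 583 FPKM in WT (2 of 5 fell). In the B cell list 4 markers were lower at an unadjusted p below 0.05 and 1 was higher (log2 fold change 0.65). The basophil and mast cell list likewise had 4 lower and 1 higher (log2 fold change 0.22). T and NK cell markers summed to 434 and 366 FPKM in KO against 300.04 and 360 FPKM in WT, with 0 of 5 called by limma, 3 lower and 0 higher at an unadjusted p below 0.05 and 1 lower by limma-voom. Nearly all of that sum was Nkg7, at 426 and 356 FPKM in KO against 282 and 341 FPKM in WT, and the other 4 tested markers had fold changes below 0. The 8 progenitor markers summed to 236 and 236 FPKM in KO against 217 and 230 FPKM in WT, with 1 rising by limma (Cd33). Behind the sum, 3 were higher and 2 lower at an unadjusted p below 0.05, against 11.4% and 9.35% of all tested genes. Limma-voom called 2 higher (Kit and Cd33) and 2 lower (Cd34 and Flt3), against 4.41% and 2.99% of all genes. Of the 8 progenitor markers 0 overlapped between groups. Among all tested genes 30.5% had both KO libraries above both WT libraries and 24.9% had them below. The limma log2 fold changes were 0.74 for Kit, 0.80 for Cd33, −0.52 for Flt3 and −0.47 for Cd34. No marker in the table was at 0 in any library, and the part of these cells in the mitotic gene levels was not tested.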

How the data were processed

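Poly(A) RNA of 4 libraries, 2 KO and 2 WT by title, was sequenced. The tools named in the submitters' processing notes are CASAVA, HISAT2 2.1.0, DESeq2 and featureCounts, with the build GRCm38, and what each did is not stated. The authors deposited FPKM values with 1 added, as inferred from the table itself, whose header names no unit and whose lowest value is 1, and this 1 was taken off. By symbol, 16003 of 16442 genes (97.3%) matched 1 gene of GENCODE M21. Of low values (30 reads or fewer) 99.0% to 99.2% were whole reads, within 0.05, once multiplied by exonic length, and reads were recovered in all libraries for 15782 genes, 76 of the members among them. Counting alone makes 3 reads on 2 kb of exons 0.0813 to 0.0904 FPKM.

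KO and WT were compared with limma 3.58.1 (R 4.3.3, trend form, group as the only term, two-sided) on log2(FPKM + 1) over the 11768 genes averaging at least 1 FPKM. P-values were adjusted by Benjamini-Hochberg over all of them, with a threshold of 0.05. Fold changes on this scale understate those of low genes. The fits were also run on simulated reads with the same spread set for all genes. That run does not measure the spread between these libraries. Alternatives were a pseudocount of 0.1, no filter, median-centred libraries, limma-voom on recovered reads (11368 genes), the replicate number as a block, each library left out, and, chosen after seeing the data, a loess length trend removed and limma-voom with each library left out. Genes were named by rule: any called member, in each role the 3 with the smallest p and the 1 with the highest level, 21 fixed members, those under the filter, and the 3 with the smallest p in each further list. Other members appear for their levels and were chosen after their values were seen. Members, roles and lists were chosen with earlier results of these data known. Motif searches used RefSeq promoters of GRCm38.p6.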

Additional observations from a re-analysis of the deposited data

How the results depend on the processing

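The count of 0 members higher and 0 lower was the same under each alternative but limma-voom on recovered reads, which called 3 higher and 4 lower. With the replicate number as a block (replicate block) 0 and 0 were called, with 5 higher and 8 lower at an unadjusted p below 0.05. Over the tested genes, the deviations of KO replicate 1 and WT replicate 1 from their group means had a correlation of 0.009. Whether same-numbered libraries belong together was not tested further. Over all alternatives the members' median log2 fold change was lowest at −0.0478 (centred libraries) and highest at 0.0416 (without WT replicate 2); with 1 library left out its lowest was −0.0412 (without WT replicate 1). All lay within the spread between replicates of 0.0554. Over all genes limma called 71 higher and 48 lower. These became 22 and 10 without the filter, 45 and 28 with centred libraries, 40 and 26 with the replicate block and 501 and 340 by limma-voom. With 1 library left out they ran from 4 and 2 (without WT replicate 1) to 50 and 14 (without KO replicate 1), and those fits take the lone library to vary like the others. Of 408 alternative values for 41 named members, 382 kept direction and side of the threshold, 7 passed it, all by limma-voom, and 19 changed sign. Without KO replicate 2 the log2 fold change was over 1.5 times smaller for Aurkb (−0.182), Birc5 (−0.157), Spc25 (−0.18), Cdca5 (−0.122), Kif21b (0.247), Kif13a (0.174), Cenpw (0.156), Cenpa (−0.0861) and Kif22 (−0.071), among others. The 19 sign changes belong to 9 members with log2 fold changes near 0, and the cause was not tested. With 1 library left out the ranges were −0.117 to 0.101 for Aurkaip1, −0.249 to 0.0501 for Bub1, −0.0827 to 0.0231 for Ccnb2, −0.227 to 0.0142 for Cdk1, −0.158 to 0.0441 for Kif11, −0.0996 to 0.129 for Kif23, −0.0366 to 0.0875 for Kif5b, −0.0448 to 0.0164 for Ndc80 and −0.0918 to 0.0635 for Spc24. With centred libraries Kif23 was at −0.0203 and Kif5b at −0.0096. With the length trend removed Aurkaip1 was at 0.00815, Kif23 at −0.0592, Kif5b at −0.0499 and Spc24 at 0.0251.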
